A study of Mus musculus with 8 samples.

Results

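The ligands and receptors of the EGF receptor (ErbB) family were described in the distal colon of *Hsf1* WT and *Hsf1* null mice, untreated or after azoxymethane and dextran sulfate sodium (AOM-DSS). The set was chosen by gene symbol and holds 9 of the 15859 genes in the count table. It has 6 ligands (*Areg*, *Ereg*, *Btc*, *Tgfa*, *Hbegf* and *Nrg1*) and 3 receptors (*Egfr*, *Erbb2* and *Erbb3*). All 9 passed the filter on low counts, as did 14371 genes in all.

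RNA-seq was done on 8 male mice of the mixed BALB/c x 129SvEV background, 2 per group. Each genotype was sampled untreated, called day 0, and treated, called day 15. Day 15 mice were injected with the carcinogen AOM at 10 mg/kg at the age of 8 weeks, and drank 1.5% DSS, which damages the colonic epithelium, for 5 days from day 7. By the labels every mouse was 10 weeks old, and the same labels place the end of the experiment directly after DSS in 1 field and on day 15 in another. *Hsf1* encodes heat shock factor 1, the transcription factor that turns on chaperone genes under stress. The null allele is carried by the whole mouse, and RNA came from whole distal colon without sorting, so that fewer cells of a type and less RNA per cell cannot be told apart in any value given here.

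EGF-family ligands are made as membrane-anchored precursors, which metalloproteases such as ADAM17 cut to release the soluble growth factor. Amphiregulin (*Areg*), epiregulin (*Ereg*), betacellulin (*Btc*), TGF-alpha (*Tgfa*) and heparin-binding EGF (*Hbegf*) bind EGFR, whereas neuregulin 1 (*Nrg1*) binds ErbB3 and ErbB4. ErbB2 has no known soluble ligand and acts as the preferred dimer partner, and ErbB3 signals to PI3K although its own kinase is weak. In the colon this family is known for driving regrowth of the epithelium after injury.

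Levels are given as CPM, the read count of a gene scaled to a common library size and corrected for library composition, and the 2 CPM values of a group are always given as replicate 1 and then replicate 2. Libraries held between 2553348 and 12440257 counts, with the smallest totals in replicate 2 of both day 0 groups. *Hsf1* itself was between 36.5 and 50.4 CPM in the WT libraries and between 9.09 and 14.0 CPM in the null libraries, matching the labels. The quasi-likelihood test of edgeR was run over all 14371 genes, and a gene was called when its Benjamini-Hochberg adjusted p was under 0.05 and its absolute log2 fold change above 1. Exons of the 9 genes shared at most 4.66% of their bases with another gene, on the opposite strand in every case.

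*Ereg*, *Areg* and *Btc* lie beside each other on mouse chromosome 5 (GRCm38), with *Ereg* at chr5:91074622-91093646 and *Areg* at chr5:91139599-91148432 on the plus strand, 46.0 kb apart, and *Btc* at chr5:91357261-91402994 on the minus strand, 209 kb further on. The 250 bases before the start of *Areg* and of *Btc* are shown because these neighbours had different patterns across the groups. They were taken from the RefSeq promoter table (GRCm38.p6), from which the windows of 5 of the 9 members were searched. Capitals mark a cAMP response element, TGACGTCA, or its core TGACG, which reads CGTCA from the opposite strand, both strands being searched and the core being part of the full element. The *Areg* window is chr5:91139349-91139598 on the plus strand and the *Btc* window is chr5:91402995-91403244 on the minus strand.
Areg: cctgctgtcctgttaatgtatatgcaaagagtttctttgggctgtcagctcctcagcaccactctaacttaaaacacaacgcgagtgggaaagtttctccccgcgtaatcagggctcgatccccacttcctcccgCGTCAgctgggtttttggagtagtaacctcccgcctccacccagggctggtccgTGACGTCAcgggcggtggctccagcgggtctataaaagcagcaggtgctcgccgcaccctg
Btc: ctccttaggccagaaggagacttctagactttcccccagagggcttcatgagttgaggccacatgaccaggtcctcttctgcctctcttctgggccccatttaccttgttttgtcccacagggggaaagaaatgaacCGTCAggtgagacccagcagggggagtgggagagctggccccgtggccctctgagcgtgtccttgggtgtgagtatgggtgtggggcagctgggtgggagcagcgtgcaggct
The full element began 61 bases before the *Areg* start and was found in 1.55% of 32851 promoter windows of this length. A core alone stood 115 bases before the *Areg* start and 113 bases before the *Btc* start, and 17.8% of all windows held at least 1 core. The letters of a heat shock element of 2 units (GAANNTTC or TTCNNGAA, 12.8% of windows) or of an AP-1 site (TGANTCA, 6.75% of windows) were in none of the 5 member windows searched, those of *Tgfa*, *Egfr* and *Erbb2* included. For *Hbegf*, *Ereg*, *Nrg1* and *Erbb3* no window was searched.

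*Ereg* had the widest range of group means among the ligands. It was at 9.70 and 3.57 CPM in WT day 0, 2.87 and 12.6 CPM in *Hsf1* null day 0, 15.4 and 89.7 CPM in WT day 15, and 1.86 and 4.54 CPM in *Hsf1* null day 15. Both WT day 15 libraries were above the other 6, and replicate 2 of WT day 15, with 850 counts, was far above its partner with 177 counts. The *Hsf1* null day 15 libraries held 12 and 34 counts.

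At day 15 *Ereg* was higher in WT than in *Hsf1* null by a log2 fold change of 4.01 ± 0.95 (SE, n = 2 mice per group, 95% interval 1.89 to 6.14), rank 39 of 14371 genes by increase. Its adjusted p from edgeR was 0.0537, and it was not called. The same comparison was called by DESeq2 (adjusted p = 0.0128), by edgeR with no filter on low counts (adjusted p = 0.0432) and by edgeR without replicate 1 of WT day 15 (adjusted p = 0.0218), 3 of 16 alternatives in all. Without replicate 2 of WT day 15 the difference was 2.25 (adjusted p = 0.292). Where a library is left out, its group has 1 mouse, which is assumed to vary like the other groups. From day 0 to day 15 *Ereg* differed by 2.87 ± 0.90 in WT (adjusted p from edgeR = 0.0750) and by -1.09 ± 0.97 in *Hsf1* null (adjusted p = 0.469). The first of these passed the test without replicate 1 of WT day 15 (adjusted p = 0.0268), with a log2 fold change of 3.64, 1 of 16 alternatives to do so, and was 1.13 without replicate 2 of that group (adjusted p = 0.525). The difference between these changes was 3.96 ± 1.31 (95% interval 1.04 to 6.88), with an unadjusted p of 0.0128 from edgeR and an adjusted p of 0.454. Over the alternatives this difference ran from 2.27 to 4.96. The *Hsf1* null change ran from -1.95 to 0.17, with its sign kept in 14 of 16.

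*Areg* was at 8.42 and 15.9 CPM in WT day 0, 6.24 and 9.70 CPM in *Hsf1* null day 0, 20.2 and 23.0 CPM in WT day 15, and 7.75 and 10.2 CPM in *Hsf1* null day 15. Its WT day 15 libraries were above all others and lay close to each other, unlike those of *Ereg*. At day 15 WT exceeded *Hsf1* null by a log2 fold change of 1.27 ± 0.41 (95% interval 0.35 to 2.18, adjusted p from edgeR = 0.110), which was not called under any alternative. The day 0 difference was 0.60 ± 0.43 (adjusted p = 0.843), and the change over time was 0.87 ± 0.41 in WT and 0.21 ± 0.43 in *Hsf1* null, neither of them called. *Btc*, the third ligand of the cluster, was at 7.74 and 12.3 CPM in WT day 0, 6.89 and 11.9 CPM in *Hsf1* null day 0, 7.04 and 8.66 CPM in WT day 15, and 4.96 and 3.61 CPM in *Hsf1* null day 15. For *Btc* it was the *Hsf1* null day 15 libraries that stood apart, below the other 6. Its day 15 difference was 0.87 ± 0.46 (adjusted p from edgeR = 0.286), and its change in *Hsf1* null mice was -1.09 ± 0.47 (unadjusted p from edgeR = 0.0436, adjusted p = 0.142).

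**Figure D1:**
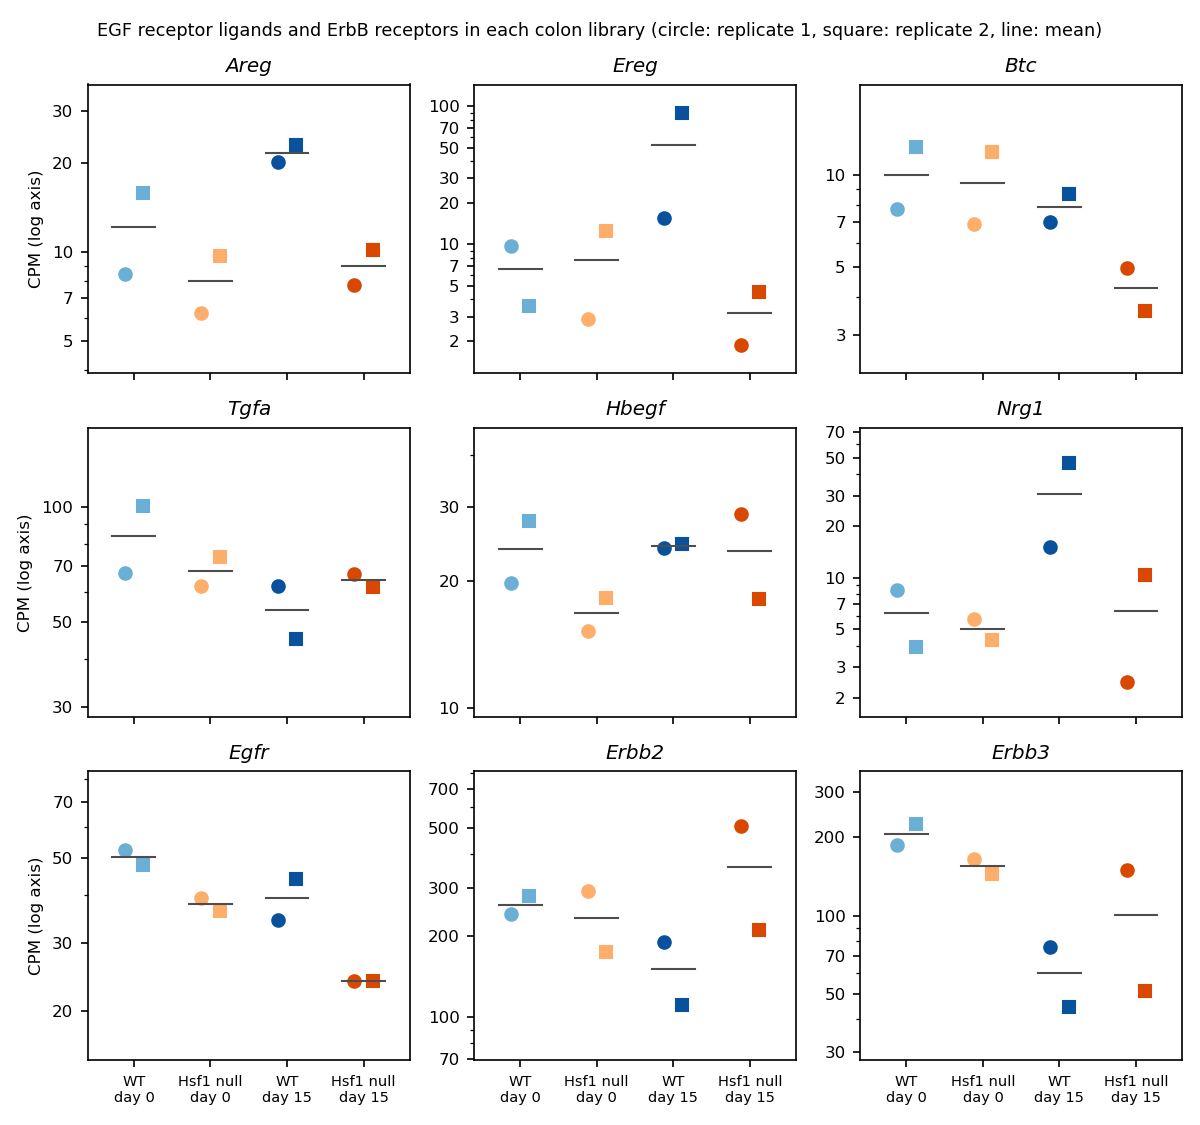
CPM of the 6 ligands and 3 receptors in each of the 8 libraries, on a log axis of its own for each gene. Circles are replicate 1, squares replicate 2 and lines the mean of 2 mice. *Areg*, *Ereg* and *Nrg1* are highest in both WT day 15 libraries, whereas *Egfr* and *Btc* are lowest in both *Hsf1* null day 15 libraries.

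*Tgfa* lies at chr6:86195223-86275719 on the plus strand and *Hbegf* on the minus strand of chromosome 18, from 36504927 to 36515805. *Tgfa* was at 67.3 and 101 CPM in WT day 0, 62.0 and 74.0 CPM in *Hsf1* null day 0, 62.1 and 45.2 CPM in WT day 15, and 67.0 and 61.7 CPM in *Hsf1* null day 15. Its values were closer together than those of *Ereg*, and of the 4 comparisons between groups the libraries did not overlap in 1, WT over time. The WT change was -0.64 ± 0.28 on the log2 scale (unadjusted p from edgeR = 0.0430, adjusted p = 0.166), and at day 15 the genotypes differed by -0.26 ± 0.27 (95% interval -0.87 to 0.35). *Hbegf* was at 19.9 and 27.8 CPM in WT day 0, 15.3 and 18.3 CPM in *Hsf1* null day 0, 24.0 and 24.6 CPM in WT day 15, and 29.0 and 18.2 CPM in *Hsf1* null day 15. Of the 4 comparisons between groups, the *Hbegf* libraries did not overlap in 1, at day 0, where both WT libraries were above both null libraries (0.50 ± 0.34, adjusted p from edgeR = 0.836). Its day 15 genotype difference was 0.04 ± 0.32, with a 95% interval from -0.68 to 0.77.

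*Nrg1*, which occupies more than 1 Mb of chromosome 8 (chr8:31814551-32884029, minus strand), was at 8.52 and 3.97 CPM in WT day 0, 5.75 and 4.31 CPM in *Hsf1* null day 0, 15.1 and 46.5 CPM in WT day 15, and 2.48 and 10.3 CPM in *Hsf1* null day 15. As for *Ereg*, both WT day 15 libraries were the highest, and replicate 2 was above replicate 1. At day 15 WT exceeded *Hsf1* null by 2.26 ± 0.70 on the log2 scale (95% interval 0.70 to 3.82, adjusted p from edgeR = 0.0995). DESeq2 called this difference (adjusted p = 0.00937), as did edgeR without replicate 2 of *Hsf1* null day 15 (log2 fold change 3.63, adjusted p = 0.0416), 2 of 16 alternatives, and without replicate 2 of WT day 15 it was 1.23 (adjusted p = 0.501). The WT change over time was 2.22 ± 0.71 (adjusted p from edgeR = 0.0793), and that in *Hsf1* null was 0.32 ± 0.72 (adjusted p = 0.793). DESeq2 called the WT change (adjusted p = 0.00782), and so did edgeR without replicate 1 of WT day 15 (adjusted p = 0.0461) or without either *Hsf1* null day 15 library (adjusted p = 0.0430 and 0.0452), 4 of 16 alternatives. Without replicate 2 of WT day 15 the WT change was 1.20 (adjusted p = 0.444). The difference between the changes of the genotypes was 1.90 ± 1.00 (adjusted p from edgeR = 0.635). Over the alternatives this difference ran from 0.88 to 3.27. The *Hsf1* null change ran from -1.05 to 0.99, with its sign kept in 15 of 16.

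Among the receptors, *Egfr* (chr11:16752203-16918158, plus strand), the receptor of the ligands other than *Nrg1*, was at 52.5 and 48.0 CPM in WT day 0, 39.4 and 36.3 CPM in *Hsf1* null day 0, 34.4 and 44.0 CPM in WT day 15, and 23.9 and 23.9 CPM in *Hsf1* null day 15. On each day both WT libraries were above both null libraries. The log2 difference was 0.41 ± 0.25 at day 0 (95% interval -0.15 to 0.97, adjusted p from edgeR = 0.833) and 0.71 ± 0.25 at day 15 (95% interval 0.16 to 1.27, adjusted p = 0.129). In each genotype both day 15 libraries were below both day 0 libraries. The change was -0.67 ± 0.25 in *Hsf1* null (adjusted p from edgeR = 0.101). In WT it was -0.36 ± 0.25 (adjusted p from edgeR = 0.372), and the difference between the changes was 0.30 ± 0.35 (95% interval -0.48 to 1.09).

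*Erbb2* (chr11:98412470-98437716, plus strand) was at 240 and 281 CPM in WT day 0, 294 and 173 CPM in *Hsf1* null day 0, 190 and 111 CPM in WT day 15, and 509 and 210 CPM in *Hsf1* null day 15. It was the only member for which both *Hsf1* null day 15 libraries were above both WT day 15 libraries, and replicate 1 of *Hsf1* null day 15 was the highest of all 8. At day 15 WT was 2.39-fold lower than *Hsf1* null (log2 fold change -1.26 ± 0.44, 95% interval -2.23 to -0.28, adjusted p from edgeR = 0.129). DESeq2 called this difference (adjusted p = 0.0314), and edgeR did so without replicate 2 of *Hsf1* null day 15 (log2 fold change -1.76, adjusted p = 0.0367), 2 of 16 alternatives. Without replicate 1 of *Hsf1* null day 15 it was -0.49 (adjusted p = 0.625). The change over time was -0.79 ± 0.43 in WT and 0.62 ± 0.43 in *Hsf1* null, and these differed by -1.41 ± 0.61 (unadjusted p from edgeR = 0.0446, adjusted p = 0.574). Over the alternatives the *Hsf1* null change ran from -0.15 to 1.12, with its sign kept in 15 of 16. The difference between the changes ran from -1.91 to -0.63. The *Erbb2* window before the RefSeq start, chr11:98412234-98412483 on the plus strand, is shown for comparison with the *Areg* and *Btc* windows, as the member whose WT libraries were both below the null libraries at day 15, with its core 171 bases before that start in capitals.
Erbb2: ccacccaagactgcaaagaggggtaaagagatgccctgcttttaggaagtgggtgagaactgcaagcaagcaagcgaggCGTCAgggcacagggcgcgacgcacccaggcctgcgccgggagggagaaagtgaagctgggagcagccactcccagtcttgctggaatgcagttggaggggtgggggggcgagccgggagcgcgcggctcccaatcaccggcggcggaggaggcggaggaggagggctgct

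*Erbb3* (chr10:128567523-128589652, minus strand) was the only member called by edgeR, in the comparison of WT over time. It was at 187 and 225 CPM in WT day 0 and 75.7 and 44.5 CPM in WT day 15, which did not overlap. In *Hsf1* null it was at 165 and 145 CPM on day 0 and at 150 and 51.5 CPM on day 15, which did overlap. The WT change was a 3.41-fold decrease (log2 fold change -1.77 ± 0.45, 95% interval -2.77 to -0.77, adjusted p from edgeR = 0.0407), and it was called. In *Hsf1* null the change was -0.63 ± 0.44 (adjusted p from edgeR = 0.349), the genotypes differed by -0.74 ± 0.44 at day 15 (adjusted p = 0.336, with the sign turned to 0.22 without replicate 1 of *Hsf1* null day 15), and the difference between the genotypes' changes was -1.14 ± 0.62 (95% interval -2.52 to 0.23, adjusted p = 0.643), so that a difference between the genotypes was not shown. Over the alternatives the *Hsf1* null change ran from -1.59 to -0.05, and the difference between the changes from -1.72 to -0.17. DESeq2 also called the WT decrease (adjusted p = 0.00111). The edgeR call was lost without WT day 0 replicate 1 (adjusted p = 0.0773) or 2 (adjusted p = 0.179), *Hsf1* null day 0 replicate 1 (adjusted p = 0.0715) or 2 (adjusted p = 0.0717), or WT day 15 replicate 1 (adjusted p = 0.0538) or 2 (adjusted p = 0.222), while the log2 fold change stayed between -2.21 and -1.44. Without replicate 2 of both day 0 groups, an alternative added after seeing the data, the adjusted p was 0.260.

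**Figure D2:**
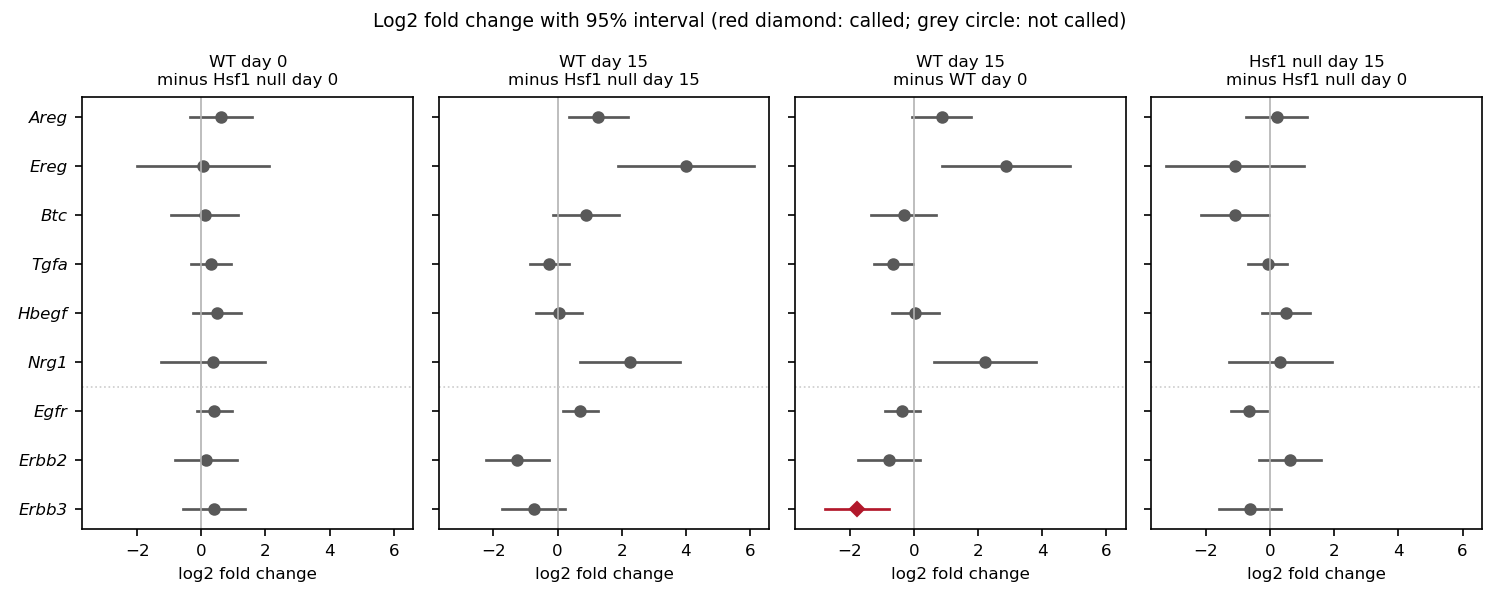
Log2 fold change of each member in the genotype comparisons at day 0 and day 15 and in the comparisons of day 15 with day 0 (edgeR, 8 libraries, 2 per group). Bars are 95% intervals, the dotted line separates ligands from receptors, and the red diamond is the only called difference, *Erbb3* in WT. The largest value is that of *Ereg* at day 15, 4.01 with an interval from 1.89 to 6.14.

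Counted over the set, 0 of the 9 members were called between genotypes at day 15, when 3.17% of all genes tested were called. At an unadjusted p under 0.05 there were 5 of 9 (*Areg*, *Ereg*, *Nrg1*, *Egfr* and *Erbb2*), against 23.2% of all genes, and DESeq2 called 3 of 9, when it called 8.41% of all genes. Both WT libraries were above both null libraries for 5 members and below them for 1, and 54.8% of all genes were without overlap in either direction. The median log2 difference was 0.71 over the 9 members and 0.04 over all genes. At day 0 the genotype difference was above 0 for all 9 members, from 0.05 to 0.60, with a median of 0.36 against 0.01 over all genes. None of these 9 was called by edgeR or DESeq2 and 0 had an unadjusted p under 0.05, with 0% of all genes called by edgeR and 6.29% at that unadjusted p. At day 0 both WT libraries were above both null libraries for 3 members and below them for 0. Over all genes, 37.1% were without overlap at day 0 in either direction. The signs of *Ereg*, *Btc*, *Tgfa*, *Nrg1* and *Erbb2* at day 0 turned under at least 1 alternative processing.

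In the comparisons over time 1 of the 9 members was called in WT, where 7.74% of all genes were called, and 0 of 9 in *Hsf1* null, where 11.8% of all genes were called. At an unadjusted p under 0.05 edgeR found 4 of 9 in WT (*Ereg*, *Nrg1*, *Tgfa* and *Erbb3*) and 2 of 9 in *Hsf1* null (*Btc* and *Egfr*), against 27.6% and 32.6% of all genes, and DESeq2 called 2 and 0, when it called 12.1% and 15.3% of all genes. The test of the difference between the changes called 0 of 9 members with edgeR and 0 with DESeq2, with 0.00696% and 0.835% of all genes called, and found 2 members (*Ereg* and *Erbb2*) at an unadjusted p under 0.05, against 8.61% of all genes. In WT both day 15 libraries were above both day 0 libraries for 3 members and below them for 4. In *Hsf1* null they were above for 0 members and below for 2. Over all genes, 62.5% in WT and 61.3% in *Hsf1* null were without overlap over time in either direction. The genotype comparison at day 15 and the WT comparison over time share the WT day 15 libraries, so they are not independent of each other.

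To compare members with each other, CPM was divided by the length of each gene's merged exons in kb. In untreated WT colon the receptors led, with *Erbb2* at 46.1 and 53.8 CPM per kb and *Erbb3* at 31.0 and 37.4 CPM per kb. *Tgfa* (10.4 and 15.5 CPM per kb) and *Areg* (6.93 and 13.1 CPM per kb) followed and overlapped each other. *Egfr* (4.64 and 4.24 CPM per kb) overlapped *Hbegf* (4.11 and 5.75 CPM per kb) in the middle of the order. *Btc* (1.71 and 2.72 CPM per kb) overlapped *Ereg* (2.35 and 0.87 CPM per kb), and *Nrg1* (0.82 and 0.38 CPM per kb) was the lowest member.

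The ligand with the highest length-scaled level was *Tgfa* in all libraries except the 2 of WT day 15. *Tgfa* made up 39.4% and 40.5% of the summed ligand level in WT day 0 but 25.3% and 11.8% in WT day 15. In the latter group *Areg* made up 43.8% of the sum in replicate 1, and *Ereg* 36.8% in replicate 2. In *Hsf1* null day 15 the *Tgfa* share was 42.1% and 38.8%, and the *Ereg* share 1.84% and 4.49%. The summed ligand level was 37.9 and 59.1 CPM per kb in WT day 15 and 24.5 CPM per kb in both *Hsf1* null day 15 libraries. At day 0 it was 26.3 and 38.3 CPM per kb in WT and 20.6 and 29.3 CPM per kb in *Hsf1* null, so that the WT libraries of the 2 days overlapped. The summed receptor level was 52.1 and 32.6 CPM per kb in WT day 15 and 125 and 51.1 CPM per kb in *Hsf1* null day 15, which overlapped. At day 0 the summed receptor level was 81.7 and 95.5 CPM per kb in WT and 87.3 and 60.6 CPM per kb in *Hsf1* null. Without division by length, *Tgfa* led in every library except replicate 2 of WT day 15, and the mean *Areg* share in WT day 15 was 11.9% in place of 37.9%.

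**Figure D3:**
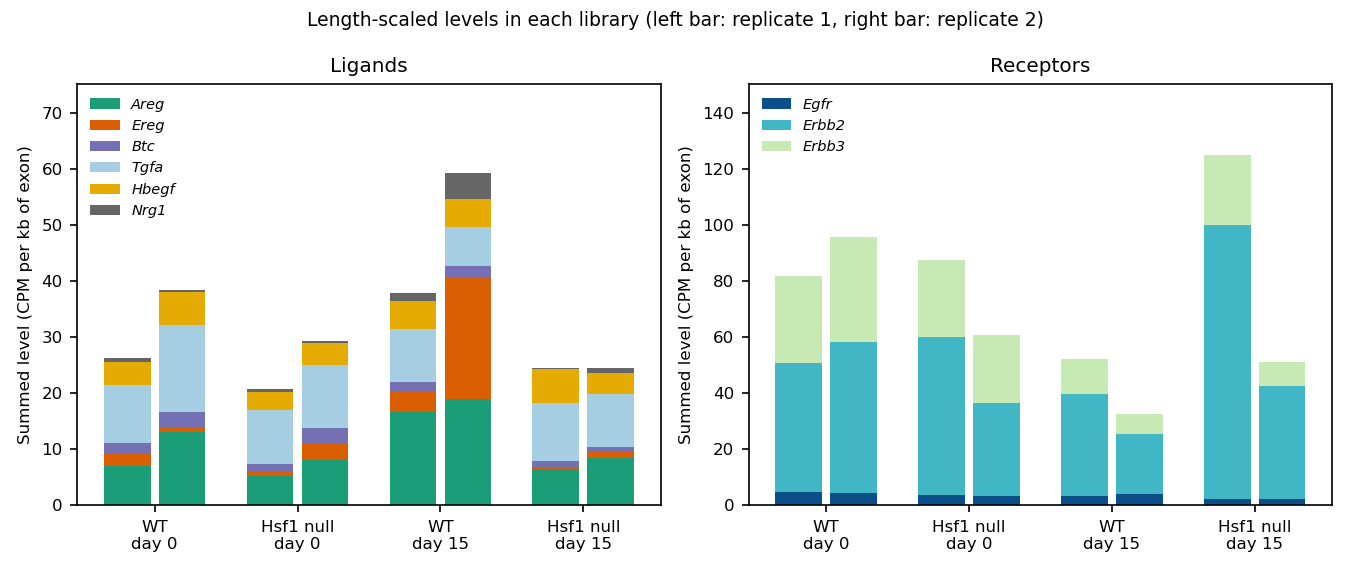
Length-scaled level of each ligand (left) and receptor (right), stacked, in CPM per kb of merged exon for each library, with replicate 1 as the left and replicate 2 as the right bar of a group. The ligand stacks of WT day 15 reach 37.9 and 59.1 CPM per kb through more *Areg* and, in replicate 2, more *Ereg*, and the receptor stacks consist mostly of *Erbb2* and *Erbb3*.

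Because several of these genes are transcribed in particular cell types, marker lists were summed in each library. The 9 epithelial markers summed to 10658 and 15555 CPM in WT day 0, 17844 and 11711 CPM in *Hsf1* null day 0, 15975 and 17190 CPM in WT day 15, and 25328 and 21820 CPM in *Hsf1* null day 15, with no marker at 0. All 9 were lower in WT than in *Hsf1* null at day 15, and 0 of 9 were called by edgeR, with 0 at an unadjusted p under 0.05. Relative to the mean log2 CPM of these markers, *Erbb3* was at -2.06 and -2.29 in WT day 0, -2.82 and -2.52 in *Hsf1* null day 0, -3.75 and -4.69 in WT day 15, and -3.53 and -4.83 in *Hsf1* null day 15. This scale moves every gene alike, by 0.56 on the log2 scale toward WT in the genotype difference at day 15 and by -0.70 in the change over time in *Hsf1* null, so overlap or its absence on it is not particular to a member. *Erbb2* was at -2.43 and -3.38 in the WT day 15 libraries against -1.77 and -2.81 in the null day 15 libraries, which overlapped, as did those of *Erbb3*.

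Neutrophil, macrophage, endothelial, B and plasma cell and T cell marker sums were, like *Ereg* and *Nrg1*, higher in both WT day 15 libraries than in the other 6. The 6 neutrophil markers summed to 112 and 452 CPM in WT day 15, with none at 0, and to 5.12 and 20.3 CPM in *Hsf1* null day 15, with 2 and 1 of 6 at 0. In the day 0 libraries they summed to between 3.57 and 10.4 CPM, with 1 to 3 of 6 at 0. Of these 6 markers 4 were called higher in WT than in *Hsf1* null at day 15, as were 2 of 6 macrophage, 1 of 4 endothelial and 2 of 5 B and plasma cell markers, and 0 of 6 fibroblast, 0 of 6 smooth muscle, 0 of 4 T cell, 0 of 4 glial and 0 of 4 neuronal markers were called by edgeR. All 6 smooth muscle markers were lower in WT at day 15, 5 of them at an unadjusted p under 0.05, with a median log2 difference of -0.88, the direction of *Erbb2*. Macrophage markers summed to 677 and 812 CPM in WT day 15 and 131 and 298 CPM in *Hsf1* null day 15, and fibroblast markers to 2320 and 2342 CPM and to 438 and 1407 CPM. T cell marker sums were also higher at day 15 than at day 0 in *Hsf1* null, with 21.1 and 9.13 CPM in WT day 0, 10.6 and 5.39 CPM in *Hsf1* null day 0, 47.2 and 93.8 CPM in WT day 15, and 31.8 and 45.7 CPM in *Hsf1* null day 15, and a median log2 change over time of 1.97 in WT and 2.10 in *Hsf1* null. Replicate 2 of WT day 15 had the highest *Ereg*, *Nrg1* and neutrophil marker levels of all libraries. In the comparison in which *Erbb3* fell, WT over time, all 6 smooth muscle markers were lower at day 15 and 5 of them were called, and their sum was 3460 and 2024 CPM in WT day 15 against 6894 and 9450 CPM in WT day 0. The part of these cell types in the values of the 9 members was not tested.

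**Figure D4:**
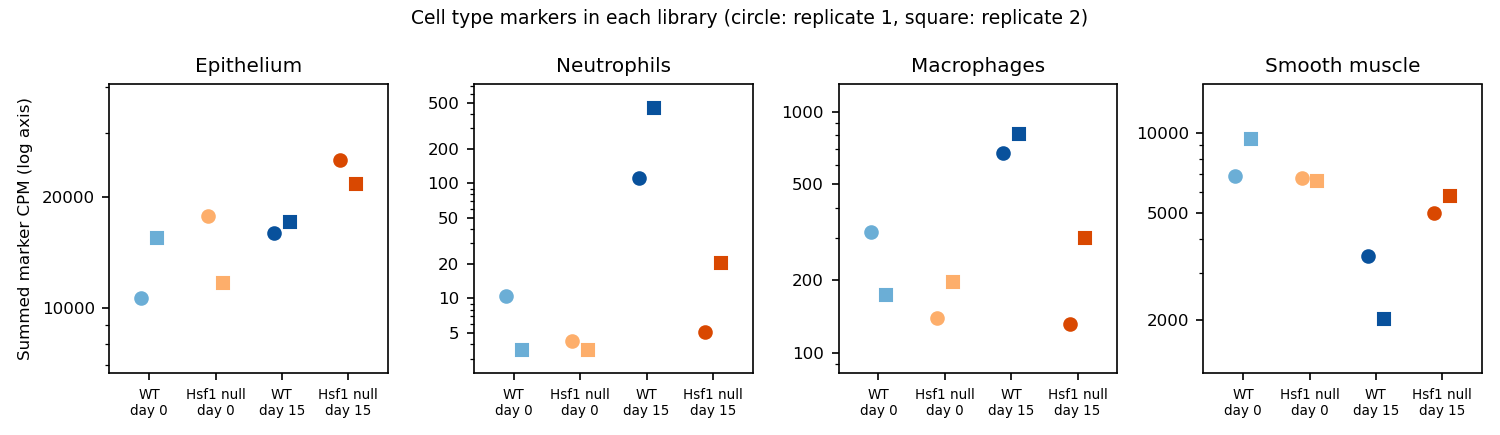
Summed CPM of epithelial, neutrophil, macrophage and smooth muscle markers in each library, on log axes, with circles for replicate 1 and squares for replicate 2. Neutrophil markers are at 112 and 452 CPM in WT day 15 and at 20.3 CPM or less elsewhere, and epithelial markers are highest in *Hsf1* null day 15.

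The genes whose log2 CPM followed *Ereg* most closely over the 8 libraries, out of 10698 candidates (mean normalized count over 50), were *Baz1a* (Pearson r = 0.970), *Lyn* (r = 0.968) and *Itgam* (r = 0.964). *Lyn* encodes a Src-family kinase of myeloid and B cells and *Itgam* the CD11b integrin of myeloid cells. *Itgam* was at 16.6 and 50.2 CPM in WT day 15 and at 4.03 and 8.69 CPM in *Hsf1* null day 15. For *Erbb3*, the receptor with the widest range of group means, the closest genes were *Etl4* (r = 0.997), *Ptdss2* (r = 0.982) and the phosphate transporter *Slc34a2* (r = 0.978). *Slc34a2* was at 50.7 CPM in replicate 1 of *Hsf1* null day 15 and 3.47 CPM in replicate 2, the same order as *Erbb3* with 150 and 51.5 CPM. These are the highest values of r out of all candidates over 8 libraries in 4 groups, and are given as a description.

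The other genes of the pathway were taken from 7 lists with 66 genes, of which 63 were tested. Between genotypes at day 15, 0 of 63 were called by edgeR and 4 by DESeq2, against 3.17% and 8.41% of all genes, and 43 had a log2 difference above 0 and 20 below 0. An unadjusted p under 0.05 was found for 16 of 63 (25.4%), close to the 23.2% of all genes. At day 0, 0 of 63 were called by edgeR and 1 by DESeq2 (0% and 0.125% of all genes), with 11 of 63 (17.5%) at an unadjusted p under 0.05 against 6.29% of all genes. The sign counts by list at day 15 were 1 above and 2 below 0 for the other ligands, 4 and 4 for the receptor brakes, 9 and 7 for the adaptor and Ras-MAPK genes, 5 and 4 for the PI3K and Akt genes and 7 and 2 for the ERK feedback genes, and 52.1% of all genes were above 0. Of the ligand-shedding list (ADAM proteases, the iRhoms *Rhbdf1* and *Rhbdf2*, and the inhibitor *Timp3*) 9 of 10 were higher in WT at day 15, with a median log2 difference of 0.56, and 8 of 10 already at day 0, with a median of 0.47. All 8 genes of the list of ERK-induced transcripts, which includes *Fosl1*, *Egr1* and *Myc*, were higher in WT at day 15, with a median of 0.35, 1 of 8 at an unadjusted p under 0.05 and 0 of 8 called. At day 0 the ERK-induced list was higher in WT for 7 of 8 genes, with a median of 0.88 and 4 of 8 at an unadjusted p under 0.05, and 0 of 8 were called. The test of the difference between the changes over time called 0 of 63 pathway genes with edgeR and 0 with DESeq2, with 5 of 63 (7.94%) at an unadjusted p under 0.05 against 8.61% of all genes.

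Over time in WT, 5 of the 63 pathway genes (7.94%) were called, all of them lower at day 15, which is close to the 7.74% called among all genes. Of the 63, 26 had a log2 fold change above 0 and 37 below 0. The called genes included *Lrig3*, of a family of receptor inhibitors (log2 fold change -1.70 ± 0.28, adjusted p from edgeR = 0.0110), *Cbl*, the ubiquitin ligase that sends EGFR to degradation (-1.24 ± 0.26, adjusted p = 0.0243), and the PI3K subunits *Pik3r1* (-1.03 ± 0.23) and *Pik3r3* (-1.05 ± 0.24, adjusted p = 0.0324). *Lrig3* was at 96.6 and 111 CPM in WT day 0 and 35.9 and 27.9 CPM in WT day 15. In *Hsf1* null 5 of 63 were also called, 2 higher and 3 lower, a share below the 11.8% of all genes, and 31 of the 63 had a log2 fold change above 0 and 32 below 0. *Egr1*, an immediate early gene downstream of ERK, rose from 13.4 and 9.34 CPM to 69.9 and 30.6 CPM (log2 fold change 2.11 ± 0.44, adjusted p from edgeR = 0.0211). In WT *Egr1* was at 46.8 and 65.1 CPM on day 0 and at 68.0 and 41.7 CPM on day 15. The metalloprotease *Adam15* rose in *Hsf1* null by 1.22 ± 0.32 (adjusted p from edgeR = 0.0371). Those that fell included the metalloprotease *Adam9* (-1.67 ± 0.36, adjusted p from edgeR = 0.0219) and the Ras exchange factor *Sos2* (-1.26 ± 0.27, adjusted p = 0.0218).

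By list, 0 of 3 other ligands, 0 of 10 shedding genes, 2 of 8 receptor brakes, 0 of 16 adaptor and Ras-MAPK genes, 3 of 9 PI3K and Akt genes, 0 of 9 ERK feedback genes and 0 of 8 ERK-induced genes were called over time in WT. In *Hsf1* null the corresponding counts were 0 of 3, 2 of 10, 0 of 8, 1 of 16, 1 of 9, 0 of 9 and 1 of 8. DESeq2 called 8 pathway genes in each genotype, when it called 12.1% and 15.3% of all genes. Without replicate 2 of both day 0 groups, the 2 libraries with the smallest totals, edgeR called 0 pathway genes in either genotype, an alternative added after seeing the data.

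**Figure D5:**
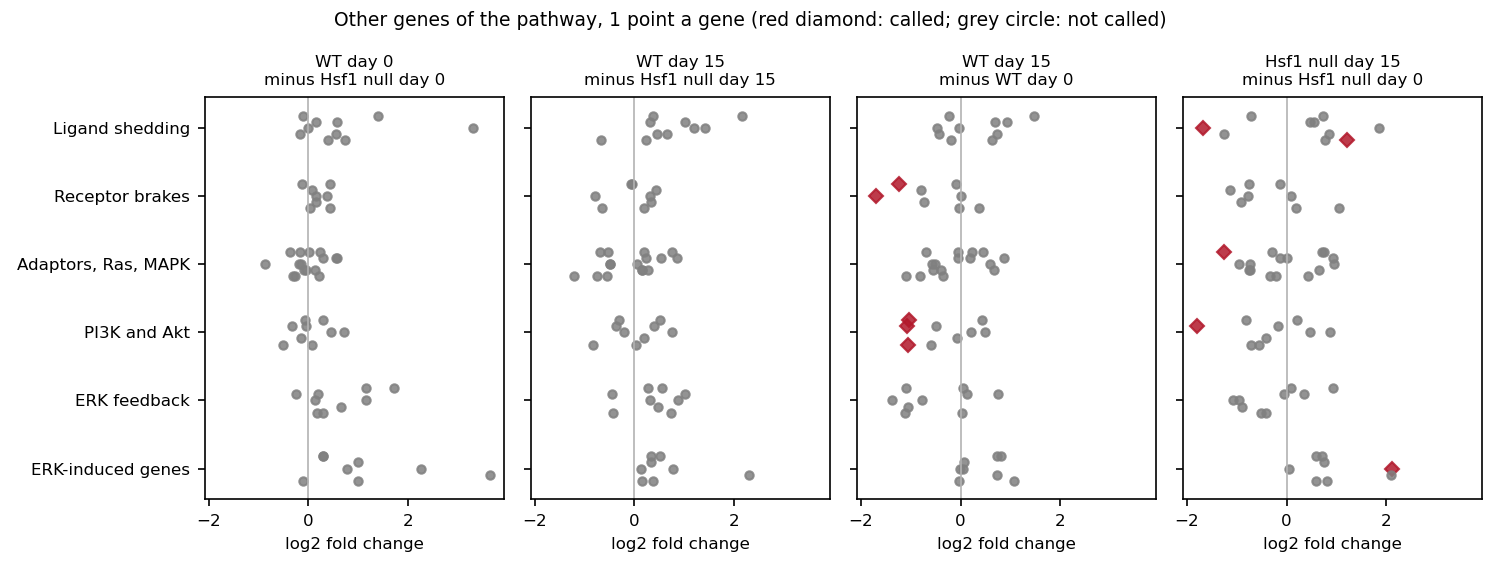
Log2 fold change of the tested genes of 6 of the 7 pathway lists in the same 4 comparisons, 1 point per gene, with called genes as red diamonds. Called genes appear in the comparisons over time, 5 lower in WT, and 2 higher and 3 lower in *Hsf1* null, and in neither genotype comparison.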

How the data were processed

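Distal colon RNA of 8 mice in 4 groups of 2 was sequenced from poly(A) libraries. According to the paper's methods and the labels, the authors aligned reads to mm10 with STAR and deposited raw counts per gene symbol, the unit tested here. The counting program and annotation are not given in the sources used here. The authors also deposited a normalized signal table, the counts divided by DESeq2 size factors, which was used only to check the recomputed size factors. The filter was a mean above 5 of the raw counts divided by the recomputed size factors. Groups came from the sample labels. The members and gene lists (7 of the pathway, 10 of cell types) were chosen with earlier results of these data known.

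Counts were fitted in edgeR 4.0.16 (R 4.3.3, TMM scaling, quasi-likelihood test, 1 factor with 4 groups, 8 libraries), with Benjamini-Hochberg adjustment over 14371 genes. SE is the log2 fold change over the square root of F. CPM used TMM-scaled library sizes. Log2 CPM had a prior count of 2. Exon lengths came from GENCODE M21. Alternatives were DESeq2 1.42.0, its size factors in edgeR, other filters, no fold threshold, a replicate block, only the groups compared, thinning to the smallest library and leaving out each library. Named genes were the members, *Hsf1*, up to 4 called genes per pathway list and comparison by fold change, and the 3 genes most like *Ereg* and *Erbb3*. Values of 1 called pathway gene are not reported here. On simulated counts for the day 15 genotype comparison over 14371 genes, edgeR recovered 75 of 100 genes changed by a log2 of 2 and 91 of 100 changed by 3, with 5 false calls. DESeq2 recovered 77 and 90 of 100, with 15 false calls. Each simulated gene had the spread of the trend over expression and not its own, so recovery of genes that vary more was not measured.

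Totals ranged from 2553348 to 12440257 counts, and 1 CPM was 2.52 counts in the smallest library. Each replicate is a separate mouse, and p-values rest on the spread between 2 mice per group, shared over the groups.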

Additional observations from a re-analysis of the deposited data

How the results depend on the processing

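Members called between genotypes at day 15 numbered 0 with edgeR, 3 with DESeq2 and 1 with no filter on low counts, and 0 to 2 when 1 library was left out. Members called over time in WT numbered 1, and were 2 with DESeq2, 0 without the 2 libraries with the smallest totals (chosen after seeing the data) and 0 to 2 when 1 library was left out. The other 3 comparisons called 0 members under every alternative run. The cause was not tested. Labels number the replicates 1 and 2 in each group, but the mice differ and the numbers carry no shared litter or day. Deviations from group means of same-numbered libraries correlated between -0.29 and 0.15. With the replicate number as a block, *Erbb3* in WT over time was at -1.86 (adjusted p = 0.0359), and it remained the 1 member called.

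Counts over all genes, against which the members were read, moved more. At day 15 between genotypes they were 455 with edgeR, 1208 with DESeq2, 6 from only the groups compared, 343 with the block, 18 without the 2 libraries with the smallest totals and 12 to 871 leaving out 1 library. The lowest, 12, came without either *Hsf1* null day 0 library. Over time they were 1112 in WT (1737 with DESeq2, 4 without the 2 libraries, 113 to 1331 leaving out 1) and 1692 in *Hsf1* null (2203 with DESeq2, 0 without the 2 libraries, 0 to 1888 leaving out 1, with 0 from leaving out replicate 2 of day 0). At day 0 between genotypes they were 0 with edgeR, 18 with DESeq2, 2 from only the groups compared and 0 to 17 leaving out 1 library. For the difference between the changes they were 1, 120 with DESeq2, 2 with the block or no filter, 3 after thinning and 0 to 50 leaving out 1 library. Of the day 15 genotype calls 39.6% were higher in WT with edgeR, 83.3% from only the groups compared and 72.2% without the 2 libraries. The libraries with the fewest *Ereg* and *Nrg1* counts held 9 and 10, and thinning every library to the smallest total left 409 genes called between genotypes at day 15.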

Other observations

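*Epgn* (epigen, an EGFR ligand), at chr5:91027464-91035215 on the plus strand and 39.4 kb from *Ereg*, did not pass the filter on low counts and was looked at after its values were seen. It had 18 counts, 1.90 CPM, in replicate 2 of WT day 15, the library with the highest *Ereg*, and 0 to 3 counts in each of the other 7 libraries. *Egf* was low throughout, between 0.633 and 4.31 CPM, and at day 15 its log2 difference between WT and *Hsf1* null was -1.83 (adjusted p from edgeR = 0.136), opposite in sign to those of *Ereg* and *Areg*.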
